A study of Mesocricetus auratus with 6 samples.

Results

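The circadian clock of mammals is switched on by transcription factors of the bHLH-PAS family, and the messengers of 4 of them were followed here: *Arntl*, *Arntl2*, *Clock* and *Npas2*. They were picked by gene symbol from the 31593 genes of the deposited matrices. All 4 symbols were present, and all 4 were among the 18275 genes with enough counts for a test. The levels of these genes, and the balance between *Clock* and *Npas2*, were compared over cortex, suprachiasmatic nucleus (SCN, the hypothalamic pacemaker) and liver of *duper* and wild-type Syrian hamsters.

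The *duper* allele is a frameshift deletion in *Cry1* that shortens the free-running period. The wild-type hamsters were of the LVG ecotype, as was the *duper* stock, which was separated from the *tau* mutation by crossing. All animals were raised in 14 h of light and 10 h of darkness, and tissue was taken at circadian time 15 (CT15), in the early subjective night. Each genotype was represented by 4 hamsters, whose ages were not given in the sources used here. All 4 *duper* hamsters were female, whereas 2 wild-type hamsters were male and 2 were female, so sex and genotype cannot be fully told apart. RNA of the 4 hamsters was combined before sequencing for cortex and SCN, and the reads of 4 individual libraries were merged for liver. This left 1 set of values for each genotype and tissue, 6 in all, so a difference within a tissue has no replicate check. The tissues of a genotype were taken from the same hamsters and are not independent of one another. A single time point was sampled, so a shift in phase and a change in mean level cannot be told apart. Depth, as the sum of estimated counts, was 6788947 (wild type) and 10391925 (*duper*) for cortex, 29936218 and 7248840 for SCN, and 69839214 and 85748562 for liver.

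BMAL1, the product of *Arntl*, acts as a pair with CLOCK or with its close relative NPAS2, which is best known from the forebrain. The pair binds E-box sequences and drives the *Per* and *Cry* genes, whose products then inhibit it, along with *Nr1d1*, *Dbp* and other outputs. The nuclear receptors REV-ERB (*Nr1d1*, *Nr1d2*) repress and ROR (*Rora*, *Rorb*) activate *Arntl* and *Npas2*. BMAL2, the product of *Arntl2*, is a paralog of BMAL1 that can also pair with CLOCK.

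The mutated gene was examined first. Levels are given as TPM, transcript abundances scaled for transcript length and library total, and so can be compared between genes. *Cry1* stood at 33.3 TPM (wild type) and 8.56 TPM (*duper*) in cortex, at 22.9 and 8.14 TPM in the SCN, and at 16.8 and 5.44 TPM in liver. Every library labelled *duper* thus held less *Cry1* than its wild-type counterpart.

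The tissue labels were compared with marker genes. The summed level of 7 hepatocyte genes was 129105 TPM (wild type) and 139455 TPM (*duper*) in liver, with *Alb* the most abundant, against 55.8 to 135 TPM in the other 4 libraries. The summed level of 7 cortical genes, led by *Slc17a7*, was 1068 and 984 TPM in cortex, 34.3 and 30.5 TPM in the SCN, and 8.65 and 13.7 TPM in liver. Both sets therefore marked the tissue named on the label. For the SCN, 6 of 9 marker genes were matched, and *Avp*, *Vip* and *Grp* were not analysed here. The 6 matched genes summed to 109.7 and 72.9 TPM in the SCN, 19.8 and 17.0 TPM in cortex, and 126 and 136 TPM in liver, wild type first. The sum was not highest in SCN because of *Rgs16*, which had 125 and 135 TPM in liver and 24.8 and 23.2 TPM in the SCN. *Prok2* was low throughout, with 0.529 and 0.237 TPM in the SCN and 0.563 and 0.476 TPM in cortex, so these 2 genes did not mark the SCN. The other 4, *Nms*, *Six6*, *Six3* and *Lhx1*, were higher in both SCN libraries than in any other. *Nms*, a peptide of SCN neurons, was found at 33.5 TPM (wild type) and 13.4 TPM (*duper*) in SCN, and had 0 counts in the other 4 libraries. *Six6*, a transcription factor of the developing SCN, was at 8.79 and 6.005 TPM in SCN and at most 0.310 TPM elsewhere. The SCN samples also held neighbouring hypothalamus. The 4 matched genes of that region, of which *Gal* was the most abundant, summed to 168 TPM (wild type) and 124 TPM (*duper*) in SCN, but did not move together. *Pmch* stood at 58.2 and 11.4 TPM and *Hcrt* at 2.39 and 0 TPM, *Gal* was nearly equal at 100.9 and 95.3 TPM, and *Pomc* was higher in *duper*, at 6.17 and 17.4 TPM (70 and 47 counts).

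By TPM ratio, summed over transcripts, *Arntl* had the largest difference between genotypes of the 4 genes in liver, though not in cortex, where *Npas2* differed more, or in SCN, where *Arntl2* did. Its level was 27.8 TPM (wild type) and 31.7 TPM (*duper*) in cortex (231 and 389 counts), 16.6 and 20.1 TPM in the SCN (682 and 181 counts), and 1.43 and 6.33 TPM in liver (163 and 836 counts). Wild-type liver was far below the other 5 libraries, and both liver libraries were below all 4 brain libraries. A lower TPM in liver was common. In a test on log2(TPM + 1), described below, 2170 of 14102 genes called between liver and cortex were higher in liver. *Arntl* exceeded 58.1% of all genes in wild-type liver and 73.5% in *duper* liver, compared with 78.5% and 80.3% in cortex and 71.7% and 74.4% in SCN.

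The paralog *Arntl2* was the least abundant of the 4 genes in cortex and in liver. It stood at 8.12 TPM (wild type) and 8.30 TPM (*duper*) in cortex, at 13.9 and 9.88 TPM in the SCN, and at 0.802 and 0.310 TPM in liver. Its TPM was lowest in liver, as was common among genes, and the SCN libraries lay above those of cortex when all transcripts were counted. With coding transcripts alone the *duper* SCN was at 2.84 TPM, below cortex at 6.81 (wild type) and 8.27 TPM (*duper*). In liver the values over all transcripts rested on 82.8 and 38.3 estimated counts. Counts of *Arntl2* were not whole numbers (within 0.001) in any of the 6 libraries, so some of its reads were shared with another gene and its level is uncertain, whereas *Arntl*, *Clock* and *Npas2* had whole counts in all 6.

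*Clock* varied least over the 6 libraries, by the ratio of highest to lowest TPM. It was measured at 27.0 TPM (wild type) and 25.4 TPM (*duper*) in cortex, 20.7 and 21.0 TPM in the SCN, and 6.52 and 6.42 TPM in liver, from 741 counts or more in every library. The genotypes were close in each tissue, and TPM fell from cortex to SCN to liver. By rank the liver stood nearer to the brain than TPM alone shows: *Clock* exceeded 72.7% and 73.7% of genes in liver, 74.8% and 75.1% in the SCN, and 78.1% and 77.1% in cortex. Fewer genes reached a mean of 1 TPM in liver (14054) than in SCN (18305) or cortex (18096), so a given TPM ranks higher in liver.

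*Npas2* was highest in cortex. It reached 29.4 TPM (wild type) and 25.0 TPM (*duper*) in cortex, 5.46 and 5.69 TPM in the SCN (323 and 80 counts), and 2.62 and 2.33 TPM in liver. The cortex libraries were far above the other 4. It exceeded 58.2% and 58.9% of genes in SCN and 63.3% and 63.7% in liver, so its place among all genes was higher in liver than in SCN although its TPM was lower. As for *Clock*, this rank is raised in liver because fewer genes were expressed there.

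**Figure D1:**
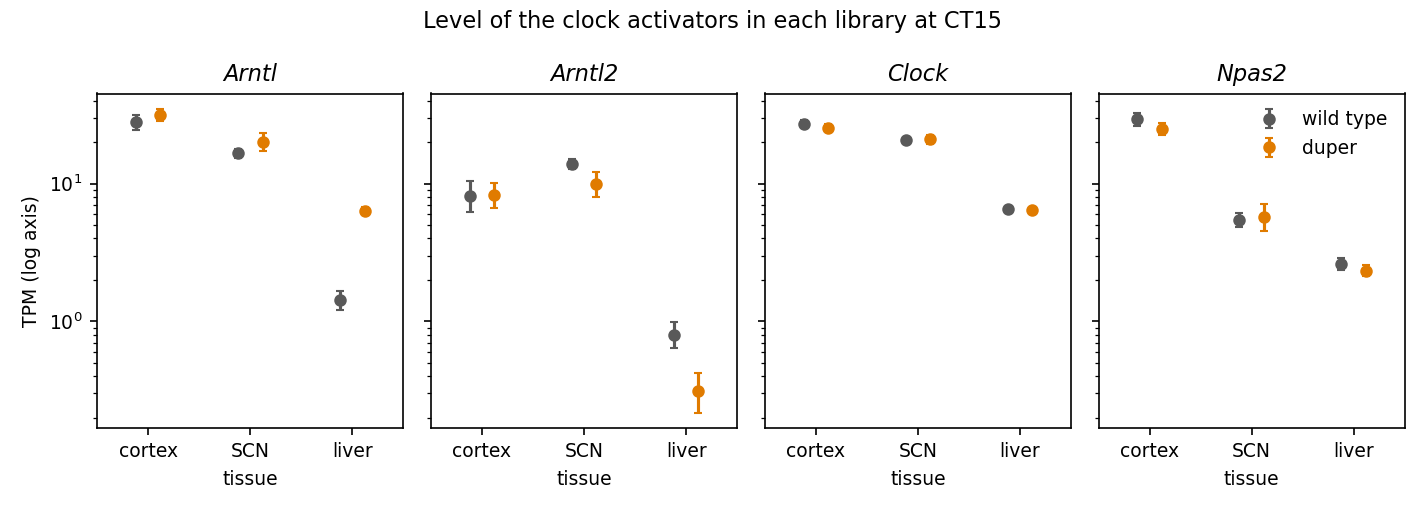
Level of *Arntl*, *Arntl2*, *Clock* and *Npas2* in TPM (log axis) in each library of cortex, SCN and liver, wild type in grey and *duper* in orange, with 95% Poisson intervals that cover counting error only. In liver *Arntl* is 1.43 TPM for wild type and 6.33 TPM for *duper*, while *Clock* in liver is 6.52 and 6.42 TPM.

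Averaged over both genotypes (mean ± SD, n = 2), *Arntl* was at 29.7 ± 2.74 TPM in cortex, 18.4 ± 2.44 TPM in SCN and 3.88 ± 3.47 TPM in liver. *Clock* followed the same order, with 26.2 ± 1.15, 20.9 ± 0.218 and 6.47 ± 0.0728 TPM, as did *Npas2*, with 27.2 ± 3.08, 5.57 ± 0.168 and 2.47 ± 0.201 TPM. With all transcripts counted, *Arntl2* was highest in SCN, at 11.9 ± 2.83 TPM, followed by cortex at 8.21 ± 0.126 TPM and liver at 0.556 ± 0.348 TPM. With coding transcripts alone the *duper* SCN, at 2.84 TPM, was below both cortex libraries (6.81 and 8.27 TPM), so SCN was not clearly highest. Within cortex, *Arntl*, *Npas2* and *Clock* were close to one another in TPM. In SCN *Clock* and *Arntl* stood above *Arntl2*, and *Npas2* was lowest with all transcripts counted. In liver *Clock* was the most abundant of the 4 genes in both genotypes, only narrowly so in *duper*, where *Arntl* was 6.33 TPM.

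The tissues were then tested against each other on counts in edgeR with TMM scaling, fitting tissue and genotype together, and calls needed both an absolute log2 fold change above 0.58 and an adjusted p under 0.05. TPM are shares of a library, so very abundant messengers lower the TPM of all others, which TMM scaling allows for. With library size in place of TMM the median of all genes moved by −1.13 (log2) for liver against cortex, −1.29 for liver against SCN and 0.17 for SCN against cortex, and on log2(TPM + 1) the liver medians moved by −1.14 and −1.18. Fold changes below are relative to TMM, and the 3 contrasts share libraries. In bulk samples such as these, fewer cells of a type and less RNA per cell cannot be told apart.

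Between SCN and cortex, *Npas2* was the only member called with all libraries. It fell by 2.21 on the log2 scale in SCN (standard error 0.19, adjusted p = 0.00127, edgeR quasi-likelihood test with Benjamini-Hochberg adjustment). It was lower in SCN in both genotypes, at −2.34 in wild type and −2.07 in *duper*. Lower calls in SCN were made for 1 of 4 members and 7.28% of all genes, and higher calls for 0 of 4 members and 3.91% of all genes. Counted over genes, 715 of 2045 calls were higher in SCN, compared with 1398 of 2439 with library size in place of TMM. The number called depended on single libraries. It was 267 without the wild-type cortex, 464 without the *duper* cortex, 620 without the wild-type SCN, 1286 without the *duper* SCN, 3564 without the wild-type liver and 3573 without the *duper* liver. *Npas2* was called in each of these 6 fits.

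*Arntl* was not called between SCN and cortex, at −0.73 on the log2 scale (standard error 0.49, with adjusted p = 0.408 by the same edgeR quasi-likelihood test with Benjamini-Hochberg adjustment). Each genotype alone gave nearly the same value, −0.76 in wild type and −0.75 in *duper*, but the fitted value moved when 1 brain library was left out, to −0.13 (wild-type cortex), −1.18 (*duper* cortex), −1.33 (wild-type SCN) and −0.29 (*duper* SCN), and was called in none of these. The standard error was smaller without either liver library. Without the wild-type liver *Arntl* was called at −0.75 (standard error 0.16, adjusted p = 0.00352 in edgeR), and without the *duper* liver at −0.75 (standard error 0.17, adjusted p = 0.00413 in edgeR). Over all alternatives of this contrast the adjusted p of *Arntl* lay between 0.00352 and 0.966. *Clock* at −0.33 (standard error 0.13) and *Arntl2* at 0.50 (standard error 0.36) were not called, and *Arntl2* ranged from 0.10 without the wild-type cortex to 0.96 without the *duper* cortex.

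Between liver and cortex, 3 of 4 members fell in liver, where 33.6% of all genes did, and 0 of 4 rose, where 31.9% of all genes did. *Arntl2* fell by 2.43 on the log2 scale (standard error 0.39, adjusted p = 0.00129), *Npas2* by 1.85 (standard error 0.18, adjusted p = 0.000104) and *Arntl* by 1.58 (standard error 0.51, adjusted p = 0.0285), all by the edgeR quasi-likelihood test with Benjamini-Hochberg adjustment. *Clock* passed the same test at an adjusted p of 0.0223, but its log2 fold change of −0.44 (standard error 0.13) was under the fold threshold, so it was not called. Leaving out any 1 library other than the *duper* liver put its adjusted p above 0.05. With library size in place of TMM it was −1.57, and called. All 4 genes were below cortex in liver in each genotype, on either scale. *Arntl* differed most between them, at −2.80 in wild type and −0.70 in *duper*, and without the wild-type cortex library it was no longer called (−1.14, adjusted p = 0.160 in edgeR, with a range of 3.0e-07 to 0.160 over the alternatives). The value of *Arntl* was −0.66 without the wild-type liver and −2.75 without the *duper* liver, and called in both. Over all genes 5836 of 11968 calls were higher in liver, compared with 2679 of 12965 with library size and 2170 of 14102 with limma on log2(TPM + 1).

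Between liver and SCN, *Arntl2* fell by 2.93 on the log2 scale (standard error 0.38, adjusted p = 0.000484, edgeR quasi-likelihood test with Benjamini-Hochberg adjustment). It was the 1 member of 4 called lower in liver, against 32.9% of all genes, and 0 of 4 were called higher, against 31.9% of all genes. *Npas2* was at 0.36 (standard error 0.18), but the direction depended on the scaling: it was called lower in liver at −0.94 with library size in place of TMM, at −0.92 with limma on log2(TPM + 1) and at −1.14 with limma on log2(TPM + 0.1). *Clock* was at −0.12 (standard error 0.13), and at 0.04 without the wild-type liver. In those 3 fits it was called lower, at −1.42, −1.55 and −1.68. *Arntl* had no single value here: it was −2.03 in wild type and 0.05 in *duper*, and the model's −0.86 (standard error 0.51) was not called. It became −0.38 without the wild-type SCN and −1.41 without the *duper* SCN, neither called, 0.093 without the wild-type liver and −1.996, called, without the *duper* liver. With library size and the limma fits it was called at −2.18, −2.19 and −2.55, in the same order. These 3 fits thus called all 4 members lower in liver, as they did most genes tested. Over all genes 5824 of 11831 calls were higher in liver, compared with 2322 of 13429 with library size, 2028 of 14059 with limma on log2(TPM + 1) and 1978 of 14252 with limma on log2(TPM + 0.1), each of 18275 tested.

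Within liver, *Arntl* was 4.43-fold higher in *duper* than in wild type by TPM (95% Clopper-Pearson interval 3.74 to 5.27, which covers counting error only). With 1 TPM added to both values the log2 ratio was 1.59, against a median of −0.10 over the expressed genes in liver, and 0.897% of the 14054 genes whose mean reached 1 TPM in liver had a ratio as high. It was 2.07 with 0.1 TPM added and 1.98 on TMM-scaled CPM. Macrophage markers differed between the same libraries. The 4 matched markers, of which *Csf1r* was the most abundant over all libraries, summed to 119 TPM (wild type) and 199.9 TPM (*duper*) in liver. *Clec4f*, a receptor of liver macrophages, was at 50.4 and 95.7 TPM, *Csf1r* at 36.3 and 59.6 TPM, *Cd68* at 22.4 and 29.3 TPM, and *Adgre1* at 9.96 and 15.3 TPM. No marker of the 4 was at 0 in liver, and *Cd163* was not analysed here. Their part in the difference of *Arntl* was not tested.

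Summed over transcripts, the other members differed less in liver. *Clock* had a *duper* to wild-type ratio of 0.984 by TPM (95% interval 0.935 to 1.04) and *Npas2* of 0.891 (0.778 to 1.02), but on TMM-scaled counts the log2 ratio of *Clock* turned from −0.02 to 0.17, and when TPM was rescaled with TMM factors that of *Npas2* turned from −0.12 to 0.0023. *Arntl2* was lower in *duper*, with a ratio of 0.387 (0.253 to 0.568). Its log2 ratio was −0.46 with 1 TPM added and −1.14 with 0.1 TPM added, since its mean in liver was 0.556 TPM. Past a log2 ratio of 0.58 in either direction with 1 TPM added were 1 of 4 members, *Arntl*, and 15.3% of expressed genes in liver (2145 of 14054, of which 668 were higher). *Arntl2* was too low to be among those 14054, and was past 0.58 with 0.1 TPM added and, at −0.71, on TMM-scaled CPM.

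Summed over transcripts, no member differed in the brain as much as *Arntl* did in liver. In cortex 0 of 4 members passed a log2 ratio of 0.58, compared with 16.0% of expressed genes, and in SCN 0 of 4 did, compared with 14.4%; these are values with no test. With coding transcripts alone, an alternative chosen after seeing the data, *Arntl2* in SCN did pass, at −1.74 with 1 TPM added, further from 0 than *Arntl* in liver at 1.59. *Arntl* was nominally higher in *duper* in both, by 1.14-fold in cortex (95% interval 0.966 to 1.35) and 1.21-fold in SCN (1.02 to 1.42). *Npas2* had a ratio of 0.852 in cortex (0.736 to 0.986) and 1.04 in SCN (0.807 to 1.34). *Clock* had 0.940 (0.858 to 1.03) and 1.01 (0.935 to 1.10), the latter turning to a log2 ratio of −0.01 on TMM-scaled CPM. *Arntl2* was at 1.02 in cortex (0.727 to 1.43) and 0.712 in SCN (0.562 to 0.893). The matched SCN markers also had a lower sum in *duper* SCN, 72.9 TPM against 109.7 TPM in wild type, with *Rgs16* the most abundant over all libraries, and their part in the *Arntl2* value was not tested.

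**Figure D2:**
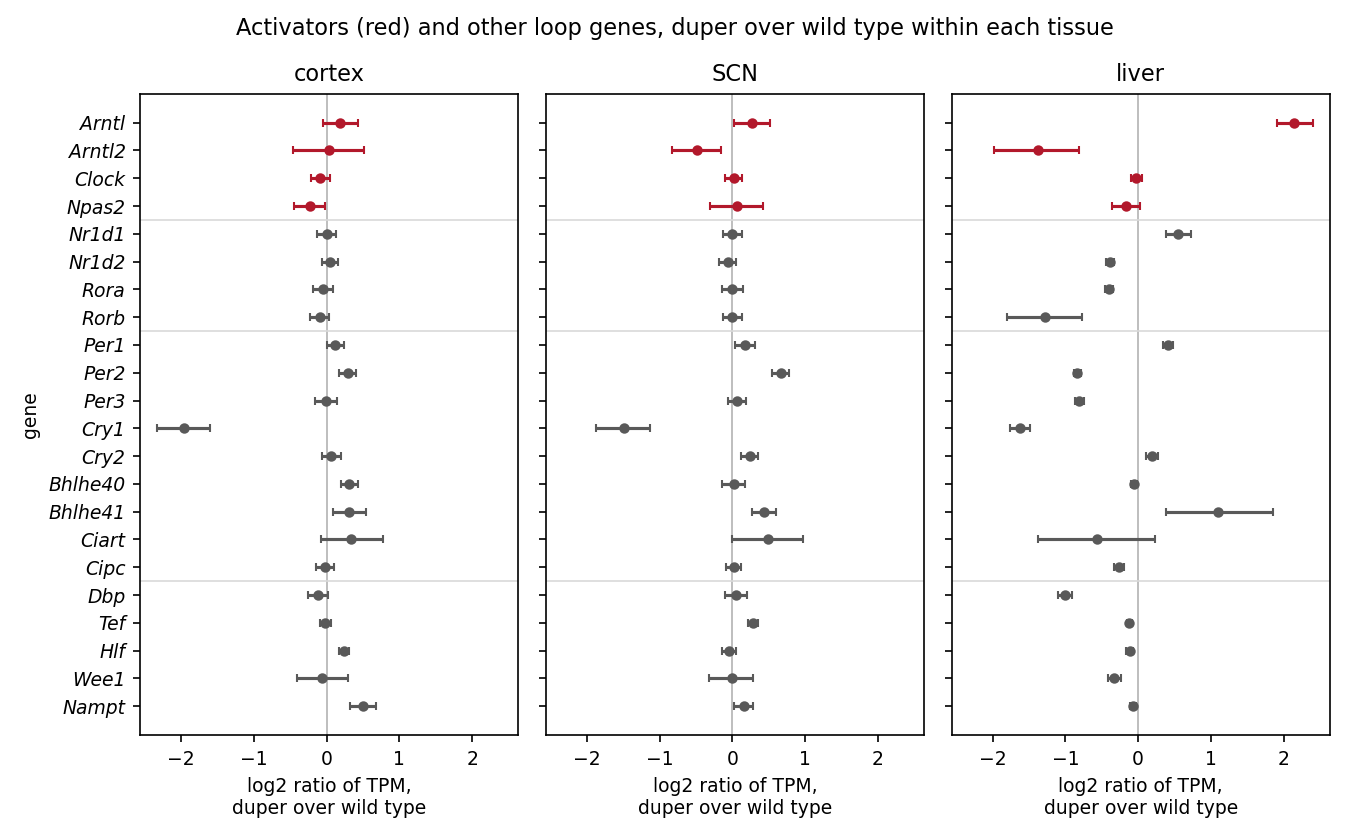
The log2 ratio of *duper* over wild-type TPM within cortex, SCN and liver for *Arntl*, *Arntl2*, *Clock* and *Npas2* (red) and for nuclear receptors, repressors and E-box outputs of the clock (grey), with 95% counting intervals and no pseudocount. *Arntl* in liver is at 2.15 (interval 1.90 to 2.40), and *Clock* is near 0 in all 3 tissues, its sign in SCN and liver changing with the scaling.

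Whether the genotype difference in liver departed from that of the brain was asked with an added term for the *duper* liver. The difference of *Arntl* was larger in liver than in cortex and SCN by 2.09 on the log2 scale (standard error 0.28, adjusted p = 0.00116, edgeR quasi-likelihood test with Benjamini-Hochberg adjustment). *Arntl* was higher in *duper* in 3 of 3 tissues. It ranked 85 by p among 18275 genes. In all, 1 of 4 members was called, against 3.24% of genes (593, of which 345 were higher). *Arntl2* (−1.001, standard error 0.55), *Clock* (0.24, standard error 0.18) and *Npas2* (0.11, standard error 0.29) were not called, and *Npas2* turned to −0.06 with library size in place of TMM. This fit left 1 residual degree of freedom, so its spread rested on the values shared over genes. The liver term was set by 1 library per genotype, so it carries no measure of the spread between hamsters, and its calls may include more false ones than the adjusted p implies. Limma on log2(TPM + 1) gave 1.37 for *Arntl* and did not call it (adjusted p = 0.258, range over the alternatives 1.4e-09 to 0.258), nor did limma on log2(TPM + 0.1), at 1.84. Those fits called 13 genes, 3 of them higher, and 0 genes, with 1543 and 1965 genes at an unadjusted p under 0.05. Library size in place of TMM called 350 genes, 122 of them higher, and moved the median of all genes by −0.16.

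Across the 3 tissues together, with the tissues in place of replicates, 0 of 4 members were called between genotypes, and 0.00547% of all genes were. The log2 fold change was 0.81 for *Arntl* (standard error 0.42), −0.55 for *Arntl2* (standard error 0.30), 0.01 for *Clock* (standard error 0.11) and −0.07 for *Npas2* (standard error 0.15). The value of *Arntl* rested on liver: it was 0.14 without the liver libraries, 1.13 without those of cortex and 1.16 without those of SCN. *Arntl2* was −0.25, −0.89 and −0.62 in the same order. The value of *Clock* turned to −0.04 with library size in place of TMM. Each had an adjusted p of 0.998 by the edgeR quasi-likelihood test with Benjamini-Hochberg adjustment; 0 of 4 had an unadjusted p under 0.05. None of the 4 was called by DESeq2, the likelihood ratio test or limma. The 1 gene called of 18275 was *Rps27*, a ribosomal protein gene named here after its values were seen, at −2.66 (standard error 0.16, adjusted p = 0.0258 in edgeR). DESeq2 called 42 genes, 26 of them higher, and the likelihood ratio test called 91.

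The balance of the partners of BMAL1 differed more between tissues than between genotypes. The ratio of *Clock* to *Npas2* in TPM was 0.920 in wild-type cortex (95% Clopper-Pearson interval 0.808 to 1.05) and 1.02 in *duper* cortex (0.908 to 1.14). In SCN it was 3.80 (3.39 to 4.28) and 3.70 (2.93 to 4.72), and in liver 2.49 (2.24 to 2.77) and 2.75 (2.49 to 3.04). Cortex thus held about equal amounts of both messengers, whereas *Clock* prevailed in SCN and liver, and the intervals of the genotypes overlapped in every tissue. *Npas2* made up 52.1% and 49.6% of the pair in cortex, 20.8% and 21.3% in the SCN, and 28.6% and 26.7% in liver. Being a ratio within a library, the balance does not depend on scaling between libraries.

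Cortex had a mean log2 ratio (± SD, n = 2) of −0.05 ± 0.10, the SCN of 1.91 ± 0.03 and liver of 1.39 ± 0.10. The genotypes differed by 0.14 (cortex), −0.04 (SCN) and 0.14 (liver), *duper* minus wild type. Liver lay between cortex and SCN, so liver against both brain tissues gave a difference of 0.46, or 1.68 with the most abundant transcript of each gene alone. Nothing is read from a test of this difference, because an exact permutation of 2 against 4 libraries cannot give a p under 0.133 and the tissues came from the same hamsters. The exact size of the balance depended on which transcripts were counted. With the most abundant transcript of each gene alone the log2 ratio was −1.78 and −1.74 in cortex, 0.06 and 0.69 in the SCN, and 1.15 and 0.82 in liver, so that cortex was still lowest but liver stood above SCN. The transcript was picked in each library, and the one picked was not the same throughout: that of *Clock* differed in wild-type cortex, and that of *Npas2* in *duper* liver.

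*Arntl* was next set against the sum of both partners. In TPM this ratio was 0.493 in wild-type cortex (95% interval 0.426 to 0.568) and 0.628 in *duper* cortex (0.560 to 0.702). It was 0.635 (0.584 to 0.690) and 0.751 (0.636 to 0.884) in the SCN, and 0.157 (0.133 to 0.183) and 0.724 (0.671 to 0.780) in liver. Wild-type liver stood apart from the other 5 libraries, while *duper* liver fell between the *duper* libraries of cortex and SCN. The *duper* value was higher in 3 of 3 tissues, by 1.27-fold in cortex, 1.18-fold in SCN and 4.62-fold in liver.

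**Figure D3:**
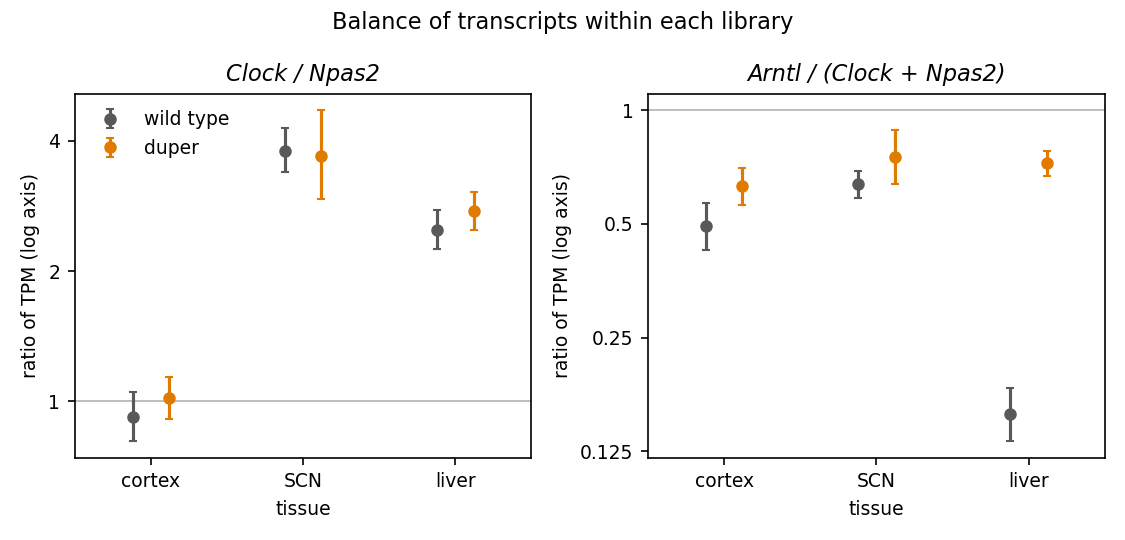
Ratio of *Clock* to *Npas2* and ratio of *Arntl* to the sum of *Clock* and *Npas2*, both in TPM on a log axis, in each library, wild type in grey and *duper* in orange, with 95% counting intervals. The ratio of *Clock* to *Npas2* is 0.920 and 1.02 in cortex but 3.80 and 3.70 in SCN, and the ratio of *Arntl* to both is lowest in wild-type liver at 0.157.

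The ratio of *Arntl2* to *Arntl* also differed with tissue. It was 0.292 and 0.262 in cortex, 0.835 and 0.492 in the SCN, and 0.560 and 0.0489 in liver, wild type first. The *duper* value was the lower in 3 of 3 tissues, which came from the same hamsters. The counting intervals overlapped in cortex and not in SCN or liver. They leave out the uncertainty of reads that *Arntl2* shared with another gene. In liver the ratio also reflects *Arntl*, at 1.43 and 6.33 TPM.

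At the level of transcripts, the annotation held 8 for *Arntl*, 5 for *Arntl2*, 16 for *Clock* and 4 for *Npas2*. The transcripts of *Clock* were long, from 9036 to 9865 bases, which is why its counts exceeded those of *Npas2* (2803 to 4010 bases) even where their TPM were equal. Of the 5 transcripts of *Arntl2*, 2 are annotated as noncoding. They took 11.5% of its counts in wild-type and 0.340% in *duper* cortex, 15.1% and 72.0% in the SCN, and 43.1% and 99.98% in liver. The coding transcripts of *Arntl2* alone were at 6.81 and 8.27 TPM in cortex, 11.9 and 2.84 TPM in the SCN, and 0.459 TPM and 5.6e-05 TPM in liver. Reads are split between near-identical transcripts by estimation, so these shares are uncertain. *Arntl*, *Clock* and *Npas2* had no noncoding transcript in the annotation.

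The genes that act on the activators, or are driven by them, were taken from fixed lists. Their counts are to be read against the 3.24% of all genes called for the difference of liver from brain, 345 higher and 248 lower. For the difference of liver from brain in the effect of *duper*, 0 of 4 nuclear receptors were called by the edgeR quasi-likelihood test, although 2 had an unadjusted p under 0.05, as did 3077 of 18275 genes, and their median was −0.16 beside 0.06 for all genes. *Nr1d1*, which encodes the repressor REV-ERBα, was at 98.7 and 98.6 TPM in cortex, 63.8 and 63.8 TPM in the SCN, and 4.15 and 6.08 TPM in liver, wild type first. Of 9 repressors of the CLOCK and BMAL1 pair, 0 rose and 1 fell, 4 had an unadjusted p under 0.05, and the median was −0.02. The one that fell was *Per2*, which was higher in *duper* in cortex (47.9 and 58.6 TPM) and SCN (24.0 and 37.9 TPM) but lower in liver (31.3 and 17.5 TPM). Its term was −1.10 (standard error 0.19, adjusted p = 0.00691, edgeR quasi-likelihood test with Benjamini-Hochberg adjustment). Of 5 E-box outputs, 0 rose and 1 fell, with a median of −0.09. *Dbp*, a transcription factor gene with E-boxes, was at 169 and 155 TPM in cortex, 89.9 and 93.1 TPM in the SCN, and 40.5 and 20.2 TPM in liver, a term of −0.76 (standard error 0.19, adjusted p = 0.0478 in edgeR with Benjamini-Hochberg adjustment). Other genes of these lists differed either way within liver: *Per3* was lower in *duper* (18.8 and 10.8 TPM) and *Per1* was higher (12.2 and 16.3 TPM), as was *Nr1d1*, and none of these was called for the difference of liver from brain.

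Of 12 tested coactivators and modifiers, 0 were called for this difference by the same test, 2 had an unadjusted p under 0.05, a share close to that of all genes, and the median was −0.20; *Crebbp* was not analysed here. Of 10 other bHLH-PAS genes tested, 2 rose and 1 fell, with a median of 0.19. *Arnt2*, a brain partner of bHLH-PAS factors, had 233 and 236 TPM in cortex but only 0.104 and 0.391 TPM in liver, from 21 and 98 counts. *Epas1*, which encodes the hypoxia factor HIF-2α, had 109 and 133 TPM in liver and lower values in *duper* in both brain tissues. *Npas4*, an activity-regulated gene of neurons, fell and had 0.555 and 0.215 TPM in liver. *Sim2* and *Ahrr* had too few counts for a test. Between genotypes across tissues, 0 genes of all 5 lists were called in edgeR. The mutated gene, *Cry1*, was among those not called, although it was lower in every *duper* library. Its value was −1.69 (standard error 0.17, adjusted p = 0.131, edgeR quasi-likelihood test with Benjamini-Hochberg adjustment), so a lack of calls here does not show a lack of change.

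Between tissues, too, the lists are given beside all genes, in fold changes relative to TMM: 3.91% of all genes rose and 7.28% fell from cortex to SCN, 31.9% and 33.6% from cortex to liver, and 31.9% and 32.9% from SCN to liver. No list was tested against these shares, and the counts into liver hold for TMM scaling, since by TPM several of the genes that rose were lower in liver. From cortex to SCN, 0 of 4 receptors rose and 2 fell, 0 of 9 repressors rose and 2 fell, and 0 of 5 outputs rose and 1 fell, with medians of −0.64, −0.33 and −0.56 beside 0.02 for all genes. *Bhlhe40*, a repressor gene, fell from 97.6 and 121 TPM in cortex to 40.7 and 41.2 TPM in SCN, and *Hlf*, an output, from 162 and 191 TPM to 58.2 and 56.2 TPM. From cortex to liver, 1 of 4 receptors rose and 2 fell, 2 of 9 repressors rose and 5 fell, and 2 of 5 outputs rose and 2 fell. Both repressors that rose were lower in liver by TPM: *Cry1*, and *Bhlhe40* at 73.2 and 70.5 TPM. *Rorb*, an activator of *Arntl*, fell from 28.6 and 26.8 TPM in cortex to 0.251 and 0.103 TPM in liver. *Rora* rose by 0.78 relative to TMM while its TPM was lower in liver (13.0 and 9.86) than in cortex (20.0 and 19.3). From SCN to liver, 1 of 4 receptors rose and 2 fell, 4 of 9 repressors rose and 2 fell, and 4 of 5 outputs rose and 0 fell. By TPM the repressors *Cry1* and *Per1* and the outputs *Tef* (117 and 143 TPM in SCN, 73.7 and 67.9 TPM in liver) and *Hlf* (37.3 and 34.3 TPM in liver) were among those that rose yet were lower in liver in both genotypes. Among 12 coactivators 0 were called from cortex to SCN, 4 rose and 5 fell from cortex to liver, and 3 rose and 5 fell from SCN to liver. For 10 other bHLH-PAS genes the counts were 1 and 1, 3 and 5, and 3 and 5. *Arnt2* and *Ahr* moved in opposite directions from cortex to liver, by −8.33 and 4.40 on the log2 scale.

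The genes most like each member over the 6 libraries were found by the root mean square difference of centred log2(TPM + 1) profiles among 13502 genes. Nearest to *Arntl* were *Slc16a1* (0.198), which encodes a lactate and monocarboxylate transporter, *Adss1* (0.234), which encodes an enzyme of adenine nucleotide synthesis, and *Esrrg* (0.274), which encodes an orphan nuclear receptor. The 100th nearest gene lay at 0.466. *Slc16a1* was at 43.7 and 52.3 TPM in cortex, 40.6 and 33.2 TPM in the SCN, and 3.37 and 12.3 TPM in liver, wild type first. In liver *Adss1* was at 11.8 and 31.2 TPM and *Esrrg* at 0.440 and 1.92 TPM. All 3 were thus low in wild-type liver and higher in *duper* liver, as the choice of nearest profiles favours. Profiles nearer to *Clock* were more common: *Tusc2* (0.0187), *Tma16* (0.0335) and *Kansl1* (0.0342), with the 100th at 0.0981. Nearest to *Arntl2* were *Dync2i2* (0.0801), *Tmem74b* (0.112) and *Wls* (0.114), with the 100th at 0.220. Nearest to *Npas2* were *Exph5* (0.0838), *Smim28* (0.0974) and *Camk1d* (0.145), with the 100th at 0.397. *Exph5* had the cortical pattern of *Npas2*, as the choice of nearest profiles again favours. It was at 30.9 and 30.0 TPM in cortex, 5.94 and 5.99 TPM in the SCN, and 2.87 and 2.26 TPM in liver.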

How the data were processed

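Transcripts were quantified by the authors with Kallisto (version not given in the sources used here) and summed per gene with tximport. The authors deposited a matrix of estimated counts without normalization and a matrix of TPM, and for each library a table of 67818 transcripts with lengths. The deposited labels gave genotype and tissue. The members and lists were chosen with earlier results of these data known.

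Estimated counts were rounded and tested in edgeR 4.0.16 (R 4.3.3; TMM, filterByExpr by genotype, quasi-likelihood F test) in a model with tissue and genotype. Common dispersion was 0.0340 and median prior degrees of freedom 4.63. TMM factors were 1.24 and 1.25 (cortex), 1.41 and 1.40 (SCN), and 0.606 and 0.539 (liver). Standard errors are the absolute log2 fold change over the root of F. Calls needed an absolute log2 fold change above 0.58 and, over all 18275 genes, a Benjamini-Hochberg adjusted p under 0.05. The study used DESeq2 with an adjustment for tissue. The difference of liver from brain had an added term for *duper* liver. Within a tissue no test was made. Clopper-Pearson and Poisson intervals (95%) treat estimated counts as counts. Python 3.11.15, numpy 2.4.6, pandas 2.3.3, scipy 1.17.1 and matplotlib 3.10.9 were used.

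Alternatives were DESeq2 1.42.0, library size, transcript length offsets, other filters on counts, the likelihood ratio test, limma 3.58.1 on log2(TPM + 1) or log2(TPM + 0.1), leaving out libraries or tissues, no tissue term, other pseudocounts and scalings, and single transcripts. Coding transcripts of *Arntl2* alone were added after seeing the data.

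The steps were tested on simulated counts. Most planted 4-fold changes were found between genotypes, and fewer for the difference of liver from brain, where few 2-fold changes were found. With dispersions following the trend, few unchanged genes were called. With gene-wise dispersions more were, in both comparisons, and for the difference of liver from brain well above the nominal 5% of calls. The trend was taken for the simulation after those calls were seen, and both are kept, so calls of that difference may include more false ones than their adjusted p implies.

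Genes named are the members, the 3 genes nearest to each among those with a symbol and a mean of at least 1 TPM, and up to 4 genes of each list; *Rps27*, markers and any further listed genes were picked with their values known. The lists were receptors, repressors, E-box outputs, coactivators, other bHLH-PAS genes and markers of tissues and cell types. Summed markers, wild type first, for neurons were 4039 and 4191 TPM (cortex), 1125 and 1297 TPM (SCN) and 0.395 and 0.421 TPM (liver). They were 93.2 and 115, 248 and 241, and 530 and 412 TPM for astrocytes (in liver all but 0.024 TPM of it *Aldh1l1*, the other marker being *Aqp4*), and 1636 and 2154, 3122 and 2677, and 2.10 and 1.56 TPM for oligodendrocytes. *Gfap*, *Mbp*, *Oxt*, *Trh* and *Agrp* were not analysed here, and 1 listed gene is not reported here. A search of promoters for E-boxes and ROR elements was not run.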

Additional observations from a re-analysis of the deposited data

Results flagged for a closer look

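The difference between *duper* and wild type in *Arntl* was larger in liver than in cortex and SCN by 2.09 on the log2 scale, and the term for that difference was called (standard error 0.28, adjusted p = 0.00116, edgeR quasi-likelihood test with Benjamini-Hochberg adjustment). *Arntl* was 1.43 TPM in the wild-type and 6.33 TPM in the *duper* liver, each 1 merged set of 4 hamsters. The term was set by 1 liver library per genotype, in a fit that left 1 residual degree of freedom. Its p therefore carries no measure of the spread between hamsters, and calls of this difference may include more false ones than their adjusted p implies. Limma on log2(TPM + 1) gave 1.37 and did not call it (adjusted p = 0.258, range over the alternatives 1.4e-09 to 0.258). Sex and genotype cannot be told apart in these libraries.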

How the results depend on the processing

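Of the values recomputed for the comparisons of tissues, *Npas2* between SCN and cortex, and *Arntl2* and *Npas2* between liver and cortex, kept their direction in 16 of 16 alternatives and their call wherever a test was made, as did *Arntl2* between liver and SCN. Genes called between genotypes numbered 42 with DESeq2, 48 without a filter, 91 with the likelihood ratio test, 2 with limma on log2(TPM + 1), 2, 34 and 22 without the cortex, SCN and liver libraries, and 0 without a tissue term, where edgeR gave 32 genes an unadjusted p under 0.05. *Clock* between genotypes turned to −0.044 with library size, −0.028 and −0.030 with limma on log2(TPM + 1) and log2(TPM + 0.1), −0.063 without liver and −0.0033 without a tissue term. Between SCN and cortex the likelihood ratio test called 3188 genes, and leaving out 1 library gave 267 to 3573 genes and −1.33 to −0.13 for *Arntl*. Wild-type libraries alone gave −0.76 and *duper* libraries alone −0.75 for *Arntl*. With library size, limma on log2(TPM + 1) and limma on log2(TPM + 0.1), *Clock* was called at −1.57, −1.87 and −2.003 between liver and cortex and at −1.42, −1.55 and −1.68 between liver and SCN. In the same order *Arntl* between liver and SCN was called at −2.18, −2.19 and −2.55, *Npas2* between liver and SCN reversed and was called lower at −0.94, −0.92 and −1.14, and *Npas2* in the difference of liver from brain turned to −0.063, −0.032 and −0.074. Without 1 library, *Arntl* ranged from −2.75 to −0.66 between liver and cortex and from −1.996 to 0.093 between liver and SCN, and *Clock* from −0.20 to 0.039 between liver and SCN. For the difference of liver from brain 197 genes were called with DESeq2, 350 with library size, 1358 with the likelihood ratio test, and 13 and 0 with limma, where *Arntl* was 1.37 and 1.84. Within liver, *Arntl* was 2.07 with 0.1 TPM added, 1.98 on TMM-scaled CPM and 1.92 on rescaled TPM, *Arntl2* was −1.14 with 0.1 TPM added, and *Clock* was 0.17 and 0.13 on the TMM scales. Coding transcripts alone, chosen after seeing the data, gave −1.74 for *Arntl2* in SCN. The log2 ratio of *Clock* to *Npas2* on counts was 1.31 and 1.41 (cortex), 3.26 and 3.21 (SCN) and 2.67 and 2.85 (liver), because *Clock* transcripts are longer. With the most abundant transcript in each library, not the same one throughout, it was −1.78 and −1.74, 0.063 and 0.69, and 1.15 and 0.82. With 1 TPM added it was 1.75 in wild-type SCN and 1.06 and 1.15 in liver. The log2 ratio of *Arntl* to both partners on counts was −2.30 and −2.01, −2.33 and −2.18, and −4.22 and −2.14, and with 1 TPM added −2.06 in wild-type liver. Other than for ratios on counts, the cause was not tested. The remaining values kept the direction and side of the threshold of their test or, with no test, moved by no more than the SD between genotypes or the reach of a counting interval: 47 between genotypes, 67 between SCN and cortex, 74 between liver and cortex, 66 between liver and SCN, 30 for the difference of liver from brain, 13, 12 and 7 within cortex, SCN and liver, and 6 and 5 for the ratios. With 1 genotype alone, the SD between genotypes was a limit that could hardly be passed, because the fitted value lies near the middle of both values. It was passed only where the genotypes nearly agreed, as for *Arntl* between SCN and cortex. Nothing is therefore read from the values of 1 genotype alone that these counts include. Among the values with no test, *Arntl* between liver and SCN was 0.05 in *duper* alone, and *Arntl2* in liver was −0.71 on TMM-scaled CPM, past 0.58. The sign of *Clock* in SCN turned to −0.0063 on TMM-scaled CPM, and that of *Npas2* in liver to 0.0023 on rescaled TPM. The tissue contrasts held genotype as a term, which pairs the tissues of each genotype. No other paired analysis was possible because each genotype and tissue had 1 library and the labels gave no replicate numbers. Leaving out libraries was not run for the difference of liver from brain, where it would leave no residual degrees of freedom. A search of promoters was not run. The lowest counts behind the members were those of *Arntl2* in *duper* liver and wild-type cortex, at 38.3 and 59.6, and of *Npas2* in *duper* SCN, at 80.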
